A study of Mus musculus with 16 samples.

Results

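The Piezo and TRP channels of the sensory pathway were examined in the bladder body of mature and aged mice. The members were 10 listed genes, Piezo1, Piezo2, Trpv1, Trpv2, Trpv4, Trpm4, Trpm7, Trpm8, Trpa1 and Trpc4, chosen by their symbol among 20145 genes with a symbol on the array. All 10 had a probe, and together they had 14 probes of the 55681 probes other than controls. The samples were C57BL/6 bladders, 16 in all, each read on its own Agilent array in 1 colour. Both sexes had 4 mature (MAT) mice, aged 12 months, and 4 AGED mice, aged 27 to 30 months, and the labels name no genetic change or treatment in any group. The comparison of AGED with MAT mice within a sex asks how age changes gene expression in the bladder.

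Piezo channels are large cation channels that open when the membrane is stretched, and in the bladder they serve the urothelium, the smooth muscle and the afferent nerves that report filling. TRP channels are a wider family of cation channels that open to heat, cold, irritants, osmotic swelling, calcium ions or signals from receptors, and several of them shape the calcium entry of urothelial and detrusor cells. The cell bodies of bladder sensory neurons lie in ganglia outside the organ, so the bladder body holds their endings but not their nuclei.

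All 13 urothelial markers and all 8 smooth muscle markers were well above background on all 16 arrays, and none of the 4 male accessory gland markers was detected often enough for a test. From 52.3% to 68.2% of the probes were well above background on an array. AGED male replicate 1 was the dimmest array, with a median signal of 48.4 against 66.3 to 128.8 on the others. Females lay on 1 slide and males on the other, and MAT mice lay in 1 row and AGED mice in the other row of each slide. Sex and slide, and age and slide row, cannot be told apart.

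The signals below are log2 processed signals less the 75th percentile of their array, so that 0 is the signal of a probe brighter than 75% of the probes. They compare arrays for 1 probe and do not order the genes by abundance. A probe was called well above background where the scanner software marked it so. A gene was called different at a Benjamini-Hochberg adjusted p under 0.05 over 26781 genes, from limma, with at least a 2-fold difference. For the difference of the age change between the sexes the adjusted p alone was used, with no fold limit.

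A test needed a probe well above background on 4 or more of the 16 arrays. Of the 10 channels, 9 had such a probe and were tested, and 7 had a probe that passed on all 16 arrays. These 7 were Piezo1, Piezo2, Trpv2, Trpv4, Trpm4, Trpm7 and Trpc4. The heat and capsaicin receptor Trpv1 was well above background on 0 arrays. The cold and menthol receptor Trpm8 was well above background on 2 MAT male, 3 AGED male, 3 MAT female and 0 AGED female arrays. The irritant receptor Trpa1 was well above background on 2 MAT male and 1 AGED male arrays and on all 4 arrays of each female group, and it entered the tests through the female arrays. Detection thus followed the sex label for Trpa1, which was also dim in females, and the other channels of the nociceptive nerve endings were dim in all groups. The mark is set before scaling. The 75th percentile of the log2 signals ran from 9.18 to 10.03 on male arrays and from 9.83 to 10.82 on female arrays. The part of this difference in the detection of Trpa1 was not tested.

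**Figure D1:**
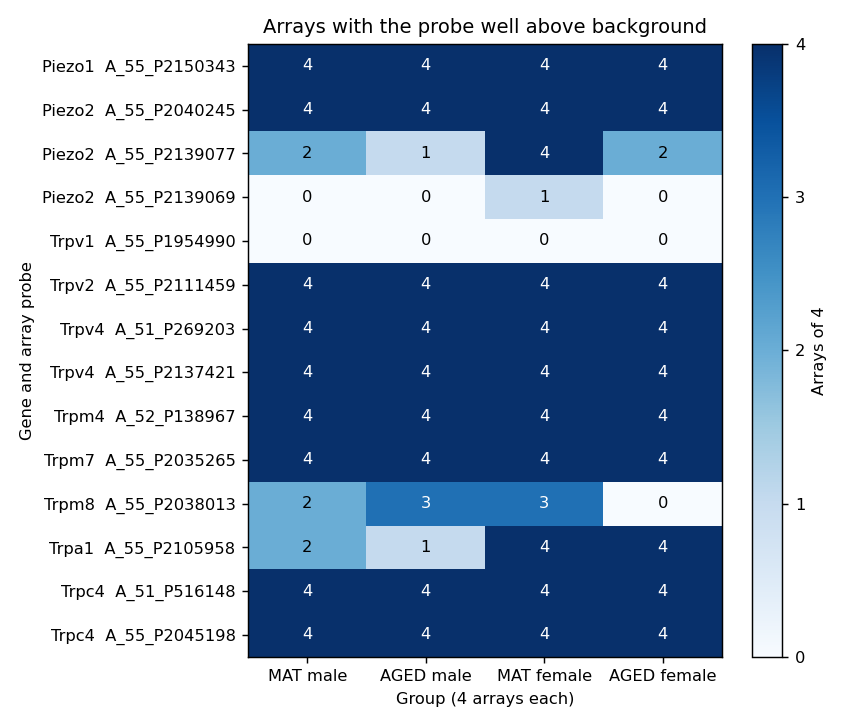
Number of the 4 arrays of each group (columns) on which each of the 14 probes of the channels (rows) was well above background. The probe of Trpv1 reads 0 in all groups, Trpa1 reads 2 and 1 in the male groups against 4 and 4 in the female groups, and 9 probes read 4 throughout.

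The promoter sequences of 7 of the 10 channels were found in the RefSeq promoter table (GRCm38.p6), which gives 250 bases before and 50 bases after a start site. Trpa1, Trpm4 and Piezo2 had no entry there. Shown are the promoters of 2 channels detected on all arrays with many CG pairs, the one with the fewest CG pairs among those found of the channels detected on all arrays, and the undetected Trpv1. CG pairs are in capitals, all other bases are in lower case, and each sequence is written 5′ to 3′ on the strand of its gene.
Trpm7: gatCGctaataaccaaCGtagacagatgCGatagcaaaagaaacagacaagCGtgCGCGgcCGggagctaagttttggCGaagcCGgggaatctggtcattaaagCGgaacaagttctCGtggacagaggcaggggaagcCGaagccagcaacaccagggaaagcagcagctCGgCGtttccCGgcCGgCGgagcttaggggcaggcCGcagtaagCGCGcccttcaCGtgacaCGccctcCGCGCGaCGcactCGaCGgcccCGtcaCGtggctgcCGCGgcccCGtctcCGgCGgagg
Trpv4: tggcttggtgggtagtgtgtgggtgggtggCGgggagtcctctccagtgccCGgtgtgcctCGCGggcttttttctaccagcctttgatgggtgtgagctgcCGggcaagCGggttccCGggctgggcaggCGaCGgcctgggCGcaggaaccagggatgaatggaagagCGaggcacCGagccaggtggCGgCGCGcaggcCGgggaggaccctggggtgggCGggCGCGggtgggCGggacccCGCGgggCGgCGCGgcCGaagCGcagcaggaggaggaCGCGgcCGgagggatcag
Trpv2: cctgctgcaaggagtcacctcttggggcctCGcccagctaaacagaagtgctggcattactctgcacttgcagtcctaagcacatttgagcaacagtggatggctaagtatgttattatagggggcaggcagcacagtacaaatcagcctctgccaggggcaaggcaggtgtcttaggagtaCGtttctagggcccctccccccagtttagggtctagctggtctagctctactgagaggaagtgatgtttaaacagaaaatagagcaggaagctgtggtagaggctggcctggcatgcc
Trpv1: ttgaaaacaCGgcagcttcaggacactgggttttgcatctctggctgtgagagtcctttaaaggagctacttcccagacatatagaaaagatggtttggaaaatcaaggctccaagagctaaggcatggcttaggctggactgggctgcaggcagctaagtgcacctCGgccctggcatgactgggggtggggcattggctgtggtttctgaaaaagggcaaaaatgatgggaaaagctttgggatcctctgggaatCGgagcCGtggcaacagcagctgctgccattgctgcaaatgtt

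The Trpm7 promoter (chr2:126876212-126876511, minus strand) holds 35 CG pairs, a number reached by 6.95% of all 32851 promoters in the table. The Trpv4 promoter (chr5:114658372-114658671, minus strand) holds 30, reached by 11.68%. Among the other channels detected on all arrays, the promoters of Piezo1 and Trpc4 hold 34 and 16 CG pairs, against a median of 7 over all promoters. The Trpv2 promoter (chr11:62574236-62574535, plus strand) holds only 2, and its other start sites hold 2 and 7, although its probe was well above background on all 16 arrays. The Trpv1 promoter (chr11:73233899-73234198, plus strand) holds 4, and the Trpm8 promoter holds 1. This is a count of letters in a window of 300 bases and says nothing of the factors that bind there.

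No channel was called different between AGED and MAT mice in either sex. In males 0 of 9 tested channels were called, where 0.851% of all tested genes were called, and in females 0 of 9 were called, where 0.19% of all were. The AGED and MAT arrays overlapped for all 9 tested channels in each sex, while the groups did not overlap for 7.82% of all genes in males and 10.8% in females. By limma, 1 channel had an unadjusted p under 0.05 in males (16.2% of all genes did) and 0 in females (10.5%). The methods' t-test with its 2-fold criterion and no adjustment called 0 of 9 in each sex. Of all 26781 genes it called 495 in males and 393 in females, so 0 of 9 says little about the channels. The log2 age changes ran from -0.58 to 0.19 in males and from -0.29 to 0.24 in females. Their median was 0.13 in males and -0.08 in females (0.00 in females without Trpm8, which was at background in AGED females), beside medians over all genes of 0.00 and -0.01. For 7 of the 9 channels in males, the 95% interval of the age change lay within a 2-fold change either way. In females it did so for 6 of the 8 other than Trpm8. It lay within 1.5-fold for 5 channels in males and 6 in females. The model pools the spread of a gene over all 4 groups, so both sexes share 1 SE. For Piezo1 and Trpv4 the AGED male SD was the widest of the groups (0.48 and 0.44), so their male intervals may be too narrow. For Trpa1 and Trpc4 the interval reached past a 2-fold decrease in both sexes, a change that 4 arrays a group could neither show nor bound for these channels. In these bulk samples a lower signal from fewer cells of a type and one from less RNA per cell cannot be told apart.

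**Figure D2:**
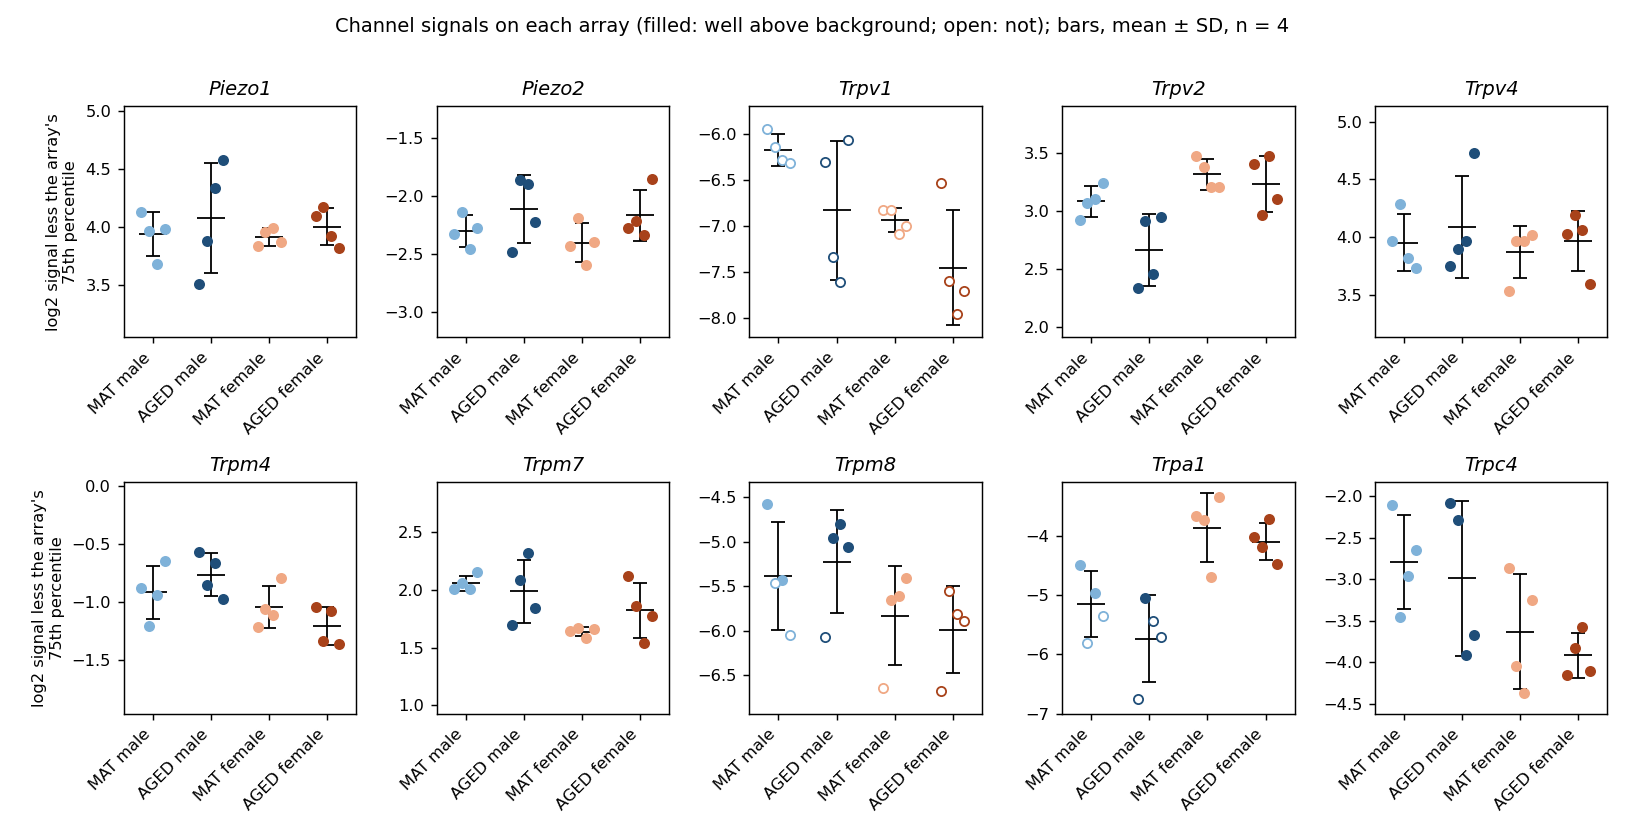
Scaled log2 signal of each channel on every array (points), by group, with the mean ± SD of the 4 arrays as bars; filled points are well above background, and each panel has its own axis. The MAT and AGED points of each sex overlap in all 10 panels, and the 4 AGED male points of Trpa1 (-6.75 to -5.04) lie below the 4 AGED female points (-4.47 to -3.71).

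Among the mechanically gated channels, Piezo1, the main stretch sensor of urothelial and endothelial cells, read 4.13, 3.97, 3.68 and 3.98 on the MAT male arrays and 3.51, 3.88, 4.33 and 4.58 on the AGED male arrays. The AGED male arrays lay on both sides of the MAT male ones and spread wider (SD 0.48 against 0.19, n = 4 each). The log2 age change of Piezo1 in males was 0.13 (SE 0.19, 95% interval -0.27 to 0.54, adjusted p = 0.758). In females it read 3.83, 3.96, 3.99 and 3.87 in MAT mice and 4.09, 4.17, 3.92 and 3.82 in AGED mice. These groups also overlapped, with a log2 age change of 0.09 (SE 0.19, 95% interval -0.32 to 0.50, adjusted p = 0.928). The highest AGED male signal set the direction in males, since without AGED male replicate 4 the age change of Piezo1 was -0.03.

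Piezo2, the stretch sensor of touch and visceral afferents, was read by 3 probes of 1 transcript. The tested probe gave -2.33, -2.14, -2.46 and -2.28 in MAT males and -2.48, -1.86, -1.90 and -2.23 in AGED males. It gave -2.43, -2.19, -2.60 and -2.40 in MAT females and -2.28, -2.21, -2.33 and -1.85 in AGED females. Most AGED arrays read within the range of the MAT arrays of their sex or just above it, and the log2 age change was 0.19 in males (SE 0.16, adjusted p = 0.581) and 0.24 in females (SE 0.16, adjusted p = 0.649). The other kept probe of Piezo2 was well above background on 9 of 16 arrays, of which 2 were MAT male and 1 was AGED male. Its age groups differed by -0.49 in males (two-sided exact permutation p = 0.3714, n = 4 against 4), mostly between values at background, so no direction is read from it, and by -0.03 in females. The last probe was well above background on 1 array of 16.

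Trpv4, the osmotic and stretch-sensitive channel of the urothelium, was bright on all arrays with both of its probes. The tested probe read 3.97, 4.29, 3.82 and 3.74 in MAT males and 3.75, 3.90, 3.97 and 4.73 in AGED males. It read 3.54, 3.96, 3.97 and 4.02 in MAT females and 4.03, 4.19, 4.06 and 3.60 in AGED females. The highest array was AGED male replicate 4 and the lowest MAT female replicate 1, and both sexes' age groups overlapped. The log2 age change was 0.13 in males (SE 0.21, adjusted p = 0.782) and 0.10 in females (SE 0.21, adjusted p = 0.928). Without AGED male replicate 4 it was -0.08 in males, and without MAT female replicate 1 it was -0.01 in females. The other probe of Trpv4 differed by -0.03 in males and 0.25 in females (two-sided exact permutation p = 0.8571 and 0.1714, n = 4 against 4). Across the 16 arrays the tested probes of Piezo1 and Trpv4 had a Pearson r of 0.72, and of 0.70 after group means were removed. This is a description over arrays that share the hybridization and the scaling.

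Trpv2, a calcium-permeable channel of immune, muscle and sensory cells, had the lowest unadjusted p among the age changes. It read 2.92, 3.07, 3.10 and 3.24 in MAT males and 2.34, 2.92, 2.45 and 2.95 in AGED males. Of the 4 AGED male arrays, 3 lay below all MAT male arrays and the fourth overlapped them. For AGED male replicate 2 the gap was narrow (2.918 against 2.923 on MAT male replicate 1). The lowest value was that of AGED male replicate 1, the dimmest array. The log2 age change in males was -0.42 (SE 0.16, 95% interval -0.77 to -0.08, unadjusted p = 0.0203), with an adjusted p of 0.213 and a two-sided exact permutation p of 0.0571 (n = 4 against 4). In females it read 3.48, 3.38, 3.21 and 3.21 in MAT mice and 3.40, 2.97, 3.47 and 3.10 in AGED mice, an age change of -0.08 (SE 0.16, adjusted p = 0.921). The difference of the age changes between the sexes was -0.34 (SE 0.23, adjusted p = 0.683), so a sex difference of the Trpv2 age change was not shown. Of the 6 fibroblast markers, 5 were lower in AGED than MAT males, 3 of them at an unadjusted p under 0.05 and 0 called, and their summed level ran from 584.3 to 708.6 in MAT males and from 345.0 to 578.7 in AGED males. Of the 6 macrophage markers tested, 4 were higher in AGED males, 0 of these at an unadjusted p under 0.05, and 1 of the 2 lower ones, Mrc1, had an unadjusted p under 0.05 (-0.47), with 0 called, and their summed level ran from 83.2 to 103.7 in MAT males and from 94.0 to 185.0 in AGED males. All 3 tested skeletal muscle markers were lower in AGED males, 2 at an unadjusted p under 0.05 and 0 called, with a summed level of 37.7 to 52.1 in MAT males and 14.5 to 46.5 in AGED males. Over all genes, 16.2% had an unadjusted p under 0.05 for age in males. All markers tested of these lists were well above background on all 16 arrays, and their part in the result was not tested.

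The calcium-activated channel Trpm4, which carries sodium into detrusor cells, read -0.87, -1.20, -0.94 and -0.64 in MAT males and -0.57, -0.85, -0.66 and -0.97 in AGED males. It read -1.21, -1.06, -1.11 and -0.79 in MAT females and -1.04, -1.33, -1.08 and -1.36 in AGED females. The groups of each sex overlapped, and the log2 age change (SE 0.15 in each sex) was 0.15 for males, with an adjusted p of 0.631, and -0.16 for females, with an adjusted p of 0.769. Trpm7, a channel with a kinase domain that carries magnesium and calcium in most cells, read 2.01, 2.05, 2.01 and 2.15 in MAT males and 1.69, 2.09, 2.32 and 1.84 in AGED males. In females it read 1.65, 1.67, 1.58 and 1.66 in MAT mice and 2.11, 1.86, 1.54 and 1.78 in AGED mice. In both sexes the AGED arrays spread wider than the MAT arrays, with SDs of 0.27 against 0.07 in males and 0.24 against 0.04 in females (n = 4 each). This was not particular to Trpm7. The smooth muscle marker Tagln had SDs of 0.30 against 0.09 in males and 0.42 against 0.03 in females, while Myocd went the other way (0.29 against 0.44 and 0.10 against 0.31). The spread was not compared over all genes. The means of Trpm7 differed by -0.07 in males (SE 0.14, adjusted p = 0.838) and by 0.19 in females (SE 0.14, adjusted p = 0.715).

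Trpc4, a channel that opens behind muscarinic receptors in smooth muscle, varied most among the channels detected on all arrays. It read -2.11, -3.45, -2.96 and -2.65 in MAT males and -2.08, -2.29, -3.91 and -3.67 in AGED males. The AGED male arrays fell into a higher and a lower pair, on either side of most MAT male arrays. In females it read -2.86, -4.04, -4.37 and -3.25 in MAT mice and -4.15, -3.83, -3.58 and -4.11 in AGED mice. The log2 age change was -0.20 in males (SE 0.43, 95% interval -1.11 to 0.72, adjusted p = 0.850) and -0.29 in females (SE 0.43, 95% interval -1.21 to 0.63, adjusted p = 0.884). The other probe of Trpc4 gave -0.16 and -0.39, and both probes had a Pearson r of 0.91 over the 16 arrays, so the scatter among arrays was shared by 2 separate probes.

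Of the channels of nociceptive and thermal endings, Trpv1 read from -7.96 to -5.95 over all arrays, with none of these values well above background, and values at background have no order. Trpm8 read -4.58, -5.47, -5.43 and -6.05 in MAT males and -6.07, -4.96, -4.81 and -5.06 in AGED males. It read -6.65, -5.65, -5.62 and -5.41 in MAT females and -6.68, -5.56, -5.82 and -5.89 in AGED females. The age groups overlapped, and the log2 age change in males was 0.16 (SE 0.36, adjusted p = 0.858). For females no fold or direction is given, since no AGED female array was well above background and the bound was under 1. Trpa1 read -4.49, -5.81, -4.97 and -5.35 in MAT males and -6.75, -5.04, -5.44 and -5.71 in AGED males. In females it read -3.66, -3.74, -4.70 and -3.34 in MAT mice and -4.02, -4.18, -3.71 and -4.47 in AGED mice. Age groups overlapped in both sexes, while females read higher than most males at either age. The log2 age change of Trpa1 was -0.58 in males (SE 0.37, 95% interval -1.38 to 0.21, adjusted p = 0.455) and -0.23 in females (SE 0.37, 95% interval -1.03 to 0.56, adjusted p = 0.895).

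**Figure D3:**
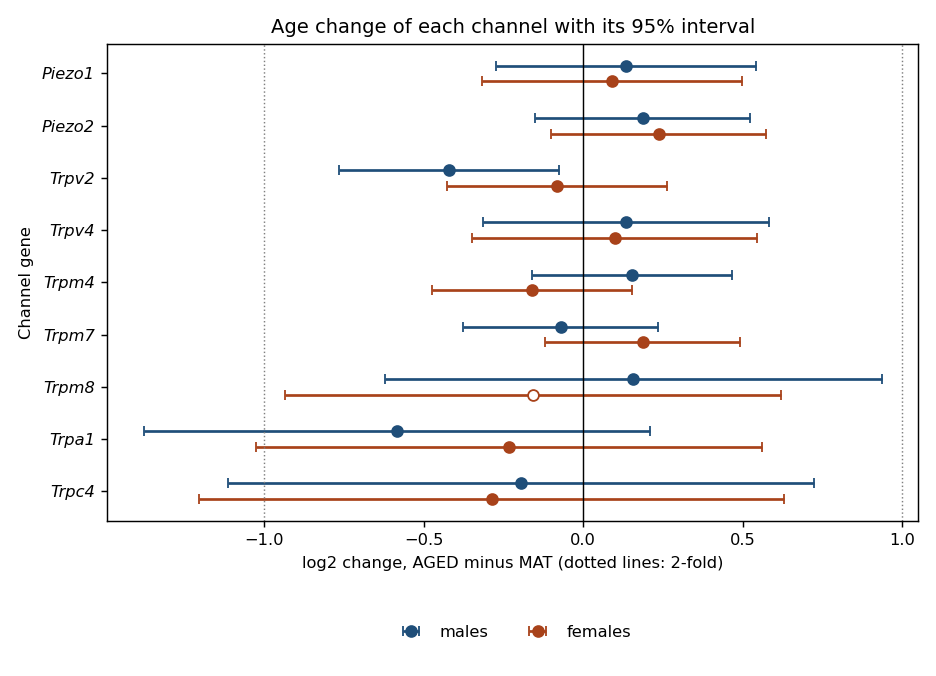
Log2 age change (AGED minus MAT, horizontal axis) of the 9 tested channels with its 95% interval from limma, in males and females; dotted lines mark a 2-fold change. Each interval except that of Trpv2 in males (-0.77 to -0.08) spans 0, and those of Trpa1 and Trpc4 are the only ones that cross a 2-fold line. The open point, Trpm8 in females, rests on AGED values at background.

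The age change was also compared between the sexes for each channel. None of the 9 channels had an adjusted p under 0.05, where 0.149% of all genes did, and 0 had an unadjusted p under 0.05, where 9.85% of all genes did. The differences, male minus female, ran from -0.35 for Trpa1 to 0.31 for Trpm4 on the log2 scale, with adjusted p from 0.676 to 0.984. For 6 of the 8 channels other than Trpm8 the interval of this difference lay within 2-fold.

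By measured signal, males and females of the same age differed more than the age groups did for a few channels, with Trpa1 first. In AGED mice the measured signal of Trpa1 was 3.12-fold lower in males than in females, a log2 difference of -1.64 (SE 0.37, 95% interval -2.43 to -0.85, adjusted p = 0.0148). All 4 AGED male arrays lay below all 4 AGED female arrays (two-sided exact permutation p = 0.0286, the smallest that 4 against 4 can give). It was the only channel called of 9, where 3.11% of all genes were called and 1.88% were called lower in males. The processed signals behind it were dim, from 5.38 to 31.2 in AGED males and from 41.2 to 138.4 in AGED females. Only 1 AGED male array was well above background. The fold, the adjusted p and the exact permutation p therefore rest mostly on male values at background. Trpa1 also met the filter for a test only with its female arrays, so these tests are no independent support for a sex difference. With normexp background correction, run on the median spot signal with an offset of 50 added to each, the difference was -0.08 (adjusted p = 0.682), and the range of adjusted p over all alternatives was 0.0109 to 0.682. In MAT mice, where 2 male arrays were well above background, the log2 difference of Trpa1 was -1.29 (SE 0.37, adjusted p = 0.141). There 3 of the 4 male arrays lay below all female arrays (exact permutation p = 0.0571), and Trpa1 was not called. In MAT mice 0 of 9 channels were called, where 0.164% of all genes were. Without the 2-fold limit 2 channels passed in AGED mice, where 9.49% of all genes did. By the unadjusted p under 0.05, 2 of 9 channels passed in MAT mice (14.0% of all genes) and 4 of 9 in AGED mice (26.2%).

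Fat markers differed with the sex label beside Trpa1. The 3 adipocyte markers other than Lep were lower in males than females at both ages, 3 at an unadjusted p under 0.05 at each age, with 0 called at either age. The summed level of all 4 adipocyte markers ran from 0.08 to 5.52 in MAT males, from 0.05 to 3.33 in AGED males, from 7.33 to 34.0 in MAT females and from 4.71 to 9.44 in AGED females. The fat hormone Lep was well above background on 0 arrays of either male group and of AGED females. It entered the tests through MAT females alone, so it is left out of the counts. The lipid droplet protein Cidec was well above background on 15 of 16 arrays. Of the 4 adipocyte markers, 0 were so on all 16 arrays. Their sums include Lep, so part of the male sums is background. All 5 B cell markers were also lower in males at both ages, 4 at an unadjusted p under 0.05 in MAT and 0 in AGED mice, with 0 called, and their summed level ran from 0.83 to 8.34 in MAT males, from 1.57 to 13.0 in AGED males, from 15.3 to 48.0 in MAT females and from 4.30 to 31.5 in AGED females. The AGED male and AGED female ranges of the B cell sum thus overlapped. The 5 tested T cell markers were all lower in MAT males, 3 at an unadjusted p under 0.05, while in AGED mice 2 were higher and 3 lower in males with 0 at that p, and summed levels were 3.17 to 20.2 in AGED males and 3.48 to 9.52 in AGED females. Of the 13 urothelial markers, 12 were higher in AGED males than AGED females, 4 at an unadjusted p under 0.05 and 0 called, with summed levels of 946.9 to 1118.8 and 697.3 to 936.4. Of the 8 tested sensory neuron and axon markers, 4 were higher and 4 lower in AGED males than AGED females, with 0 called and summed levels of 15.7 to 28.6 and 15.9 to 24.3. Over all genes, 14.0% had an unadjusted p under 0.05 between the sexes in MAT mice and 26.2% in AGED mice. The part of these marker lists in the Trpa1 result was not tested.

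The other sex differences were smaller than 2-fold. Trpv2 was lower in AGED males than AGED females by 0.57 on the log2 scale (mean 2.66 ± 0.31 against 3.24 ± 0.24, SD, n = 4 each, adjusted p = 0.0388), and its groups did not overlap. Over all alternatives this adjusted p of Trpv2 ran from 0.0280 to 0.215. Trpm4 was 0.44 higher in AGED males, with groups that did not overlap and an adjusted p of 0.0711. Trpm7 was 0.42 higher in MAT males than MAT females, where all 4 males (2.01 to 2.15) lay above all 4 females (1.58 to 1.67), with an adjusted p of 0.210, and in AGED mice the difference was 0.16 (adjusted p = 0.509). Groups did not overlap for 1 of 9 channels in MAT mice (18.4% of all genes) and for 3 of 9 in AGED mice (13.7%). Trpc4 was 0.84 higher in MAT males and 0.93 higher in AGED males on the log2 scale (adjusted p = 0.407 and 0.186), and its groups overlapped at both ages. For Trpm8 in AGED mice no female array was well above background, and the bound on the fold of the measured means was 1.22, with males higher. AGED male replicate 1 was also at background. The groups overlapped (two-sided exact permutation p = 0.1143, limma adjusted p = 0.201), so a higher Trpm8 signal in AGED males was not shown. All 13 urothelial markers were higher in MAT males than MAT females, 7 at an unadjusted p under 0.05 (14.0% of all genes were) and 0 called, with a median log2 difference of 0.30 against 0.08 over all genes and a summed level of 857.4 to 1079.6 against 724.5 to 828.9, and their part in the Trpm7 difference was not tested. By their tested probes, Piezo1, Piezo2 and Trpv4 differed between the sexes by 0.12 or less on the log2 scale at both ages. The other probe of Trpv4 differed by 0.30 in MAT and 0.01 in AGED mice (male minus female). For the other kept probe of Piezo2 the difference was -0.17 in MAT and -0.63 in AGED mice. That probe was well above background on 2 MAT male and 1 AGED male arrays, so no direction is read from it. The sexes overlapped at both ages for each of these other probes.

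**Figure D4:**
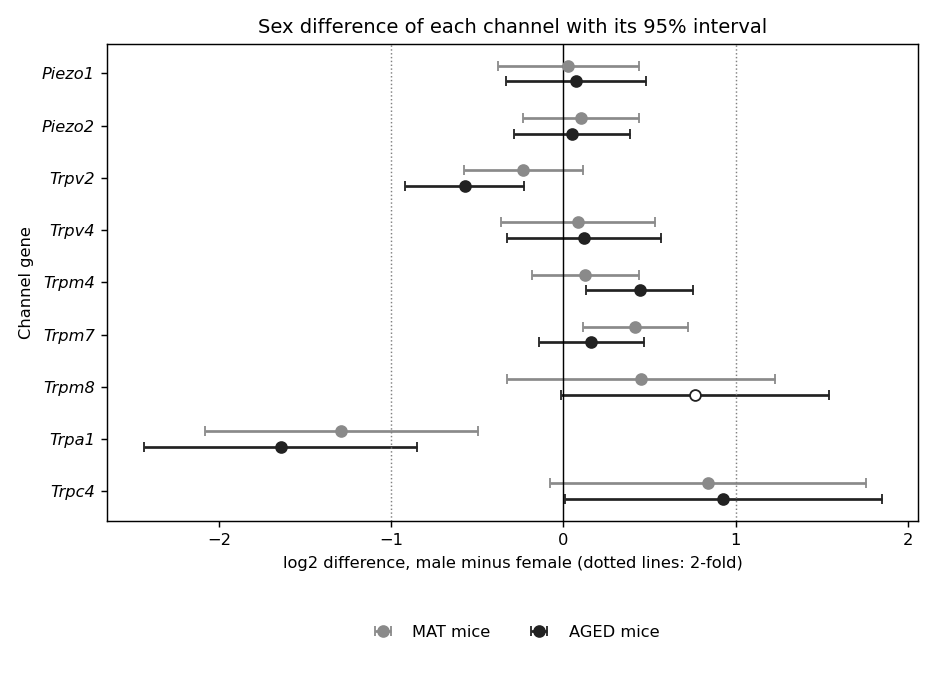
Log2 difference between males and females (male minus female, horizontal axis) of the 9 tested channels with its 95% interval from limma, in MAT and AGED mice; dotted lines mark a 2-fold difference. Trpa1 lies furthest from 0 at both ages (-1.29 and -1.64), and the Piezo1, Piezo2 and Trpv4 intervals span 0. Most AGED male values behind Trpa1 were at background. The open point, Trpm8 in AGED mice, rests on female values at background.

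The genes that work beside the channels were followed by 4 lists. Over all genes, 0.851% were called for age in males and 0.19% in females. Of the 20 other TRP channels, 13 were tested and 0 were called in either sex, with median age changes of -0.02 in males and 0.03 in females. The 3 with the highest signal were the polycystin channel Pkd2 (0.04 in males and -0.25 in females) and the lysosomal channels Mcoln1 (0.32 and 0.15) and Mcoln2 (0.33 and 0.36). Trpc5, Trpc7, Trpv3, Trpv5, Trpm5 and Pkd2l1 were not well above background on enough arrays, and Trpc2 had no probe named here. Of the 21 other mechanosensitive channels and Piezo partners, 18 were tested and 0 were called in either sex, with medians of 0.04 and 0.05. The osmosensitive channels Tmem63b and Tmem63a and the Piezo subunit Mdfic had the highest signals, with age changes of 0.29, 0.00 and -0.06 in males and 0.09, 0.08 and 0.13 in females.

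Of the 22 genes of bladder afferent signalling, 19 were tested. In males 0 were called (0.851% of all genes were), and in females 1 was called lower (0.19% of all genes were called). The median age changes of this list were -0.16 in males and -0.02 in females. The called gene was P2rx2, an ATP-gated channel that joins P2rx3 on bladder afferents, with -0.87 ± 0.26 in MAT females and -2.19 ± 0.40 in AGED females (SD, n = 4 each). All 4 AGED female arrays (-2.45 to -1.59) lay below all 4 MAT female arrays (-1.12 to -0.54), and the log2 age change of P2rx2 was -1.32 (SE 0.24, adjusted p = 0.0406). In males it was -0.38 (adjusted p = 0.463), and the difference between the sexes was 0.94 (adjusted p = 0.356). The P2rx2 call in females was lost under several alternatives, with an adjusted p of 0.126 when the replicate number was a block and up to 0.156 when 1 array was left out. Nerve markers were also lower in AGED females, with 7 of 8 tested sensory neuron and axon markers lower, 2 at an unadjusted p under 0.05 and 0 called, a median of -0.53 and summed levels of 25.3 to 27.3 in MAT and 15.9 to 24.3 in AGED females. Of the 6 Schwann cell markers, 5 were lower in AGED females, 4 at an unadjusted p under 0.05 and 0 called, with a median of -0.67 and summed levels of 17.7 to 19.5 and 15.8 to 19.5. Over all genes, 10.5% had an unadjusted p under 0.05 for age in females. Of the neuronal markers, Scn10a was not detected often enough for a test, and the part of both lists in the P2rx2 result was not tested. The 3 genes of this list with the highest signal were the ATP-degrading Entpd2 and Entpd3 and the ATP-gated channel P2rx4, with age changes of -0.29, 0.10 and 0.19 in males and -0.02, 0.01 and 0.32 in females.

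Of the 20 genes of calcium entry and TRP regulation all were tested, 0 were called in either sex, and the median age changes were -0.09 in males and 0.03 in females. Among those with the highest signals, the calcium sensor Calm2 had age changes of -0.20 in males and -0.05 in females, and the calcium release channel Itpr1 had age changes of -0.10 and -0.07. Orai2, a pore subunit of store-operated calcium entry, is named after its values were seen. It read 0.22 ± 0.14 in MAT males and 1.14 ± 0.06 in AGED males (SD, n = 4 each), and the AGED male arrays (1.07 to 1.20) all lay above the MAT male arrays (0.11 to 0.43). The log2 age change of Orai2 in males was 0.91 (SE 0.11, adjusted p = 0.00121), which passed the adjusted p but not the 2-fold limit. With the mean of its probes it was 0.57 (adjusted p = 0.0340), and over all alternatives the adjusted p ran up to 0.0990. The mean of all 5 tested T cell markers was higher in AGED males, 2 at an unadjusted p under 0.05 (16.2% of all genes) and 0 called. Summed levels were 2.70 to 4.45 in MAT and 3.17 to 20.2 in AGED males. The highest AGED male values of all 5 came from 1 array. Cd3g, for example, ran from -2.41 to 0.72 in AGED males and from -2.12 to -1.28 in MAT males. A rise of the T cell markers shared by the AGED male arrays was thus not shown. All 5 B cell markers were also higher in AGED males, 0 at an unadjusted p under 0.05 and 0 called. Their summed levels were 0.83 to 8.34 in MAT and 1.57 to 13.0 in AGED males. The part of both lists in the Orai2 result was not tested. In females the age change of Orai2 was 0.03 (SE 0.11, adjusted p = 0.963), and the test of the difference between the sexes gave 0.88 (SE 0.16, adjusted p = 0.0495).

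**Figure D5:**
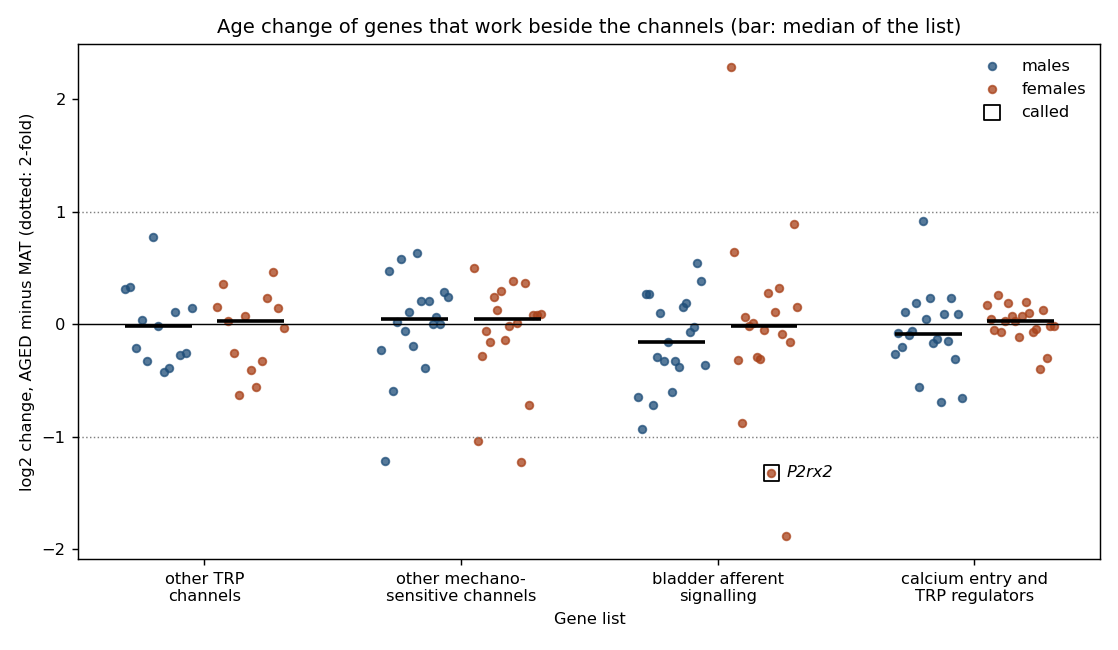
Log2 age change (AGED minus MAT, vertical axis) of each tested gene of the 4 lists (points), in males and females, with the median of the list as a bar and a square around the called gene. The medians lie between -0.16 and 0.05, and P2rx2 in females (-1.32) is the only called gene.

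The genes whose signals followed a channel most closely were taken over the 16 arrays, among 13384 genes with a symbol that were well above background on all of them. Piezo1 was followed most closely by Dhrsx, Noc4l and Clptm1l (Pearson r 0.91, 0.90 and 0.90), and Piezo2 by P2rx4, Tacc3 and Gm8709 (0.85, 0.83 and 0.81). Trpv2 was followed by D030028A08Rik, Rtl8c and Cnpy4 (0.93, 0.90 and 0.88) and Trpv4 by Micall2, Ralb and Nipal2 (0.87, 0.85 and 0.84). Trpm4 was followed by Fyco1, Rnf44 and Urgcp (0.88, 0.88 and 0.87), Trpm7 by Map3k15, Hnrnpa2b1 and Eif2b4 (0.93, 0.91 and 0.88), and Trpc4 by Meis1, Pigz and Mm2pr (0.88, 0.87 and 0.86). These are the highest of many correlations over arrays that share sex, age, slide and scaling, and they are given as a description.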

How the data were processed

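RNA of 16 bladder bodies was measured on Agilent SurePrint G3 1-colour arrays. The authors deposited an intensity per spot, background-subtracted by Feature Extraction with no scaling between arrays, and flags for each spot. The file headers give version 10.7.3.1 and the submitters' processing notes version 9.1. A table of log2 values that the authors deposited as well differed from the scaled scanner values by a constant per probe and by a median of at most 0.0132. Groups were taken from the labels.

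From the processed signals, replicate spots were averaged, 399 probe values with an outlier mark and all control spots were left out, and 0 values were saturated. The log2 signal less each array's 75th percentile was used. Probes that were well above background on 4 or more of the 16 arrays were kept (36972 of 55681), and the kept probe with the highest mean stood for its gene. Accessions were matched to RefSeq symbols for 26582 probes. Summed levels of marker lists add the scaled signals on the linear scale. A fold against a group with no array well above background is a bound, the brighter mean over the dimmer one, where no dim array counts as lower than its lowest signal well above background.

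A single limma model (3.58.1, R 4.3.3) with a mean for each of the 4 groups and 12 residual degrees of freedom gave all comparisons, and was also tested on simulated data. Exact permutation tests were two-sided, with a smallest p of 0.0286. The number of arrays limits the precision. The genes named were the channels, the 3 genes most correlated with each channel detected on all arrays, the genes of 4 pathway lists called in an age comparison, and the 3 brightest of each list. P2rx2 met this rule and Orai2 was added. A gene that met it is not reported here. The channels and lists were chosen with earlier results of these data known. Marker lists covered urothelium, smooth muscle, fibroblast, macrophage, T cell, B cell, mast cell, sensory neuron and axon, Schwann cell, endothelium, lymphatic endothelium, red blood cell, adipocyte, skeletal muscle and male accessory gland. Alternatives covered scaling, background correction (normexp on the median spot signal, since no mean spot signal was used here), filters, probe choice, tests, weights, a block and leaving out each array.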

Additional observations from a re-analysis of the deposited data

Results flagged for a closer look

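Of 56 groups of 4 values examined, those of the kept probes of the channels and of P2rx2 and Orai2, 3 held an array far from the other 3, which is 5.36%, and chance marks about 1 in 20. For the tested probe of Trpv4, MAT female replicate 1 read 3.54 against 3.96 to 4.02 on the others, a gap of 0.893 of the range of the group. For the other probe of Trpv4, MAT male replicate 2 read 1.04 against 0.35 to 0.47, a gap of 0.833 of the range. For P2rx2, AGED female replicate 3 read -1.59 against -2.45 to -2.33, a gap of 0.858 of the range.

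The age change of Orai2 differed between the sexes by 0.88 on the log2 scale (male minus female, limma, adjusted p = 0.0495), with 0.91 in males and 0.03 in females. The adjusted p of this difference ran from 0.0142 to 0.447 over the alternatives, and the mean of the probes of Orai2 gave 0.42.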

How the results depend on the processing

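No channel was called for age, or for the difference of the age change between the sexes, under any alternative run. The number of channels called between AGED males and AGED females, 1 in the report (Trpa1), was 0 with normexp, with the methods' t-test after adjustment, with only the 2 groups compared and with array weights, 0 with probes well above background on all 16 arrays (where Trpa1 was not tested), and 2 with limma's adjusted p alone. Between MAT males and MAT females it was 1 (Trpa1) with the methods' t-test unadjusted, limma's unadjusted p with 2-fold, and array weights. Leaving out 1 array kept these counts at 0, 0, 0, 0 and 1, and Trpa1 in AGED mice between -1.87 and -1.30. The AGED male values of Trpa1 stayed mostly at background in each of these fits, so this range is no support for a sex difference.

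Of 500 values of single genes under 21 alternatives other than leaving out arrays, 472 kept their direction and their side of the threshold and 9 changed sign. All 9 were age changes of channels that were not called. With normexp these were -0.32 for Piezo2, 0.14 for Trpm7, 0.12 for Trpa1 and 0.11 for Trpc4 in males and 0.0906 for Trpm8 in females. The others were -0.15 for Piezo2 in males with the mean of its probes, 0.0196 for Trpm7 in males with array weights, -0.15 for Trpm8 in males with quantile normalization, and 0.19 for Trpm8 in females with a floor on low signals. Those of Trpm8 in females rest on AGED values at background and carry no direction. The cause was not tested. Leaving out 1 array changed the sign of 12 of 512 values. Their ranges were -0.0341 to 0.32 for Piezo1, -0.08 to 0.25 for Trpv4, -0.18 to 0.0275 for Trpm7, -0.0664 to 0.44 for Trpm8 and -0.50 to 0.11 for Trpc4 in males, and -0.16 to 0.0088 for Trpv2, -0.0128 to 0.22 for Trpv4, -0.43 to 0.0741 for Trpm8 and -0.0157 to 0.12 for Orai2 in females.

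The replicate numbers did not pair the arrays, since arrays of the same number had correlations of -0.147 to 0.068, so apart from P2rx2 the replicate block is given only here. With the replicate block, which equals the slide column, 0 channels were called in each age comparison, in their difference and in MAT mice, and 1 between AGED males and females. Over all genes the block called 184 against 228 for age in males and 3 against 51 in females, and P2rx2 lost its call (adjusted p = 0.126). Over all genes, the called counts with the lowest and highest over the other alternatives were 228 (0 to 758) for age in males, 51 (1 to 505) in females, 40 (7 to 2637) for the difference, 44 (17 to 690) for sex in MAT and 834 (45 to 2541) in AGED mice. The highest were with normexp in males, limma's unadjusted p in the next 3 and no fold limit in AGED mice, and the lowest with the methods' t-test after adjustment in both age comparisons and AGED mice, no filter for the difference and normexp in MAT mice. Leaving out 1 array gave 123 (without MAT male replicate 3) to 375 (without AGED male replicate 2) for age in males, 1 (without MAT female replicate 1 or 4 or AGED female replicate 2) to 120 in females, 6 (without MAT female replicate 1, 2 or 4 or AGED female replicate 2) to 269 for the difference, 17 (without MAT male replicate 1) to 116 in MAT and 610 (without AGED female replicate 4) to 1254 in AGED mice, with the highest of the last 4 without AGED male replicate 1. The share of higher calls in males was 32.5%, against 8.4% with normexp and 71.9% without a filter. Dim probes limit what the arrays show of Trpv1, Trpm8 and Trpa1.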
